A study of Mus musculus with 15 samples.

Results

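KD6 and KD4 are lines of 6DT1 cells, a mouse mammary cancer cell line, in which lentiviral short hairpin RNAs (shRNAs) target the same gene, *Smarcd1*. Chromatin accessibility of the lines was compared directly here, with 3 ATAC-seq libraries of KD6 against 3 of KD4, over all 44598 regions of open chromatin for which the authors counted reads in the knockdown experiment. These 6 libraries are part of 15 in the series. The 3 libraries of Scr, a line that carries a scrambled shRNA (shScramble), served as a reference level, and the *Smarcd1* overexpression line (OE) and its empty vector line (EV), with 3 libraries each, served as a wider reference. KD4, KD6 and Scr cells all carry an shRNA vector and were selected with puromycin, whereas EV and OE were selected with blasticidin. All lines were grown untreated, in monolayer on plastic, in DMEM with fetal bovine serum. The sources used here do not say that a line is 1 clone. The labels do not say which of the study's *Smarcd1* shRNAs KD4 and KD6 carry; the catalogue names of those shRNAs end in the digits of the line names, which is a hint and not a stated link. Because each shRNA is represented by 1 line, a difference caused by the shRNA and a difference between the lines as such cannot be told apart.

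SMARCD1, also called BAF60A, is a subunit of the SWI/SNF (BAF) complexes. These complexes use the energy of ATP to slide or evict nucleosomes, and SMARCD subunits are known to connect them with transcription factors that bring them to promoters and enhancers. ATAC-seq reads out where DNA is free of nucleosomes, because the transposase that inserts the sequencing adapters cuts open DNA far more often than packed DNA. A pair of shRNAs against a gene is commonly used so that changes common to both lines can be separated from those of a single line, and the loci below are those at which the lines parted.

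The counts add up to 17339307, 21216338 and 18934973 in KD4 replicates 1, 2 and 3, to 22133627, 19424959 and 17767572 in KD6, and to between 16176518 and 19152971 in Scr. Within KD4 and KD6, replicates differed by at least 3.53 times the variance that sampling of reads alone would give, so no library looked like a repeat of another. The labels describe replicates as separate passages of the cells, seeded on successive days, but in a protocol written for RNA, so the p-values below measure the spread between such libraries of a line, and at the least between libraries. Accessibility does not measure how far *Smarcd1* was depleted, and its RNA and protein in these lines were not analysed here. The regions have positions in the mm39 build and no gene names. No mm39 annotation or genome was used here, so whether a region lies in a promoter, an exon or an intron, and its sequence, are not given, and the markers of epithelial and mammary cells could not be checked.

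Of 44289 regions with enough reads to test, 67 were more accessible in KD6 than in KD4 (0.151% of those tested) and 32 were less accessible in KD6 (0.0723%), by edgeR's quasi-likelihood test with p-values adjusted after Benjamini and Hochberg (FDR) and called at 0.05. The 99 regions are thus 0.224% of the regions tested. The changes were of moderate size. Regions higher in KD6 had a median log2 fold change of 0.97, or 1.96-fold, with a range of 0.61 to 1.60. Regions lower in KD6 had a median size of change of 1.09, or 2.14-fold higher levels in KD4, with a range of 0.69 to 2.07. Across all regions tested the median size of change was 0.14. At an unadjusted p under 0.05 the directions were nearly even, with 1387 regions higher and 1433 lower in KD6. The libraries of KD6 and KD4 did not overlap at any of the 99 regions, and they did not overlap at 11.7% of all regions tested.

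**Figure D1:**
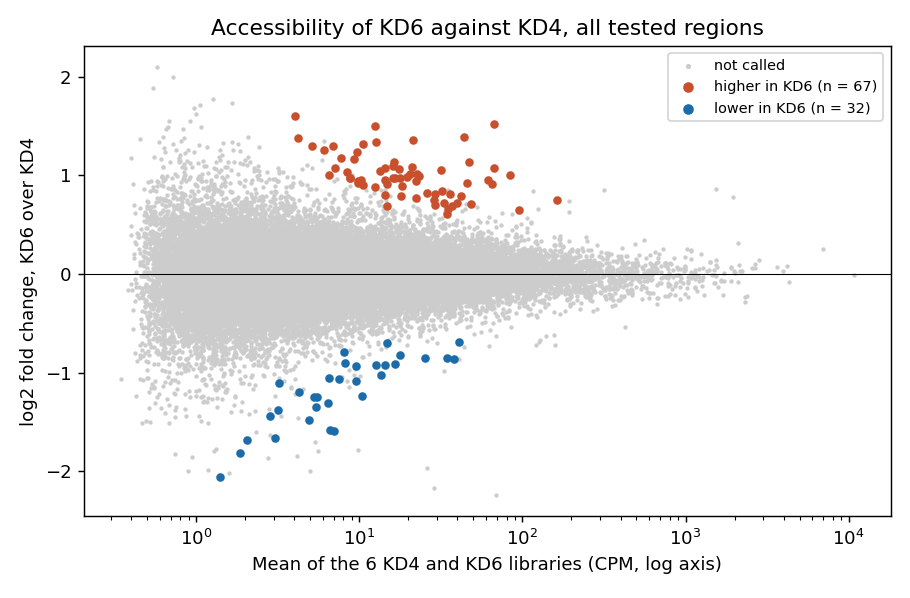
Log2 fold change of KD6 over KD4 (y axis) against the mean level of the 6 libraries (CPM, x axis, log scale) for all 44289 tested regions, with the 67 regions higher and the 32 regions lower in KD6 in colour. The called regions lie between 0.61 and 1.60 above the line and between 0.69 and 2.07 below it, and those higher in KD6 lie further right, with a median level of 17.9 CPM against 7.23 CPM.

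The regions that parted the lines were longer and, for those higher in KD6, stronger than most. Their median length was 461 bp for the higher and 522 bp for the lower regions, against 303 bp over all regions tested. Regions of at least 1000 bp made up 8.96% of the higher ones (6 of 67) and 12.5% of the lower ones (4 of 32), against 2.02% of all. The median level over the KD4 and KD6 libraries, in CPM (read counts put on a common library size), was 17.9 CPM for the higher regions and 7.23 CPM for the lower ones, against 5.88 CPM over all. Under 5 CPM lay 2 of the 67 higher regions and 9 of the 32 lower ones, against 20150 of all 44289 tested. A test passes more easily at regions with more reads, and how much of these differences read depth alone would give was not tested.

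The region with the smallest p lies at chr9:7446962-7447633 and was more open in KD6 than in KD4 and Scr. Its level was 105.2, 92.7 and 99 CPM in KD6, 25.3, 34.2 and 44.1 CPM in KD4, and 27.4, 33.6 and 39.0 CPM in Scr. All KD6 libraries were more than double any KD4 or Scr library, while KD4 spanned the whole range of Scr. The log2 fold change of KD6 over KD4 was 1.52 (standard error 0.177, FDR = 0.00203), and relative to Scr KD6 rose by 1.57 (FDR = 0.00178) whereas KD4 stood at 0.05 (FDR = 0.961).

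The longest region called, of 2588 bp at chr16:10099695-10102282, showed the same order. KD6 had 65.7, 70.3 and 54.0 CPM, KD4 had 20.2, 29.1 and 23.0 CPM, and Scr had 27.4, 31.9 and 24.1 CPM. Every KD6 library was above every Scr library, and KD4 and Scr overlapped. The log2 fold change was 1.39 between the lines (standard error 0.160, FDR = 0.00203) and 1.19 for KD6 over Scr (FDR = 0.00416).

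At chr2:76525763-76526815, KD6 had 32.9, 33.8 and 25.3 CPM, against 10.9, 11.9 and 13 CPM in KD4 and 16.1, 17.7 and 12.7 CPM in Scr. KD6 was again apart from KD4 and Scr, with a log2 fold change of 1.36 over KD4 (FDR = 0.00203) and 0.98 over Scr (FDR = 0.0166). At chr3:92029630-92030657, a weaker region, KD6 had 13.8, 7.67 and 8.2 CPM, and the libraries of KD4 (4.25, 3.52 and 4.29 CPM) and of Scr (4.04, 4.15 and 4.3 CPM) lay together. There the log2 fold change was 1.302 (FDR = 0.0149), and the first KD6 library stood above its other replicates.

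KD6 also stood apart from KD4 and Scr at a pair of neighbouring regions on chromosome 7 and at 3 regions on chromosome 6. On chromosome 7, the region chr7:142065805-142066103 had 13.2, 12.8 and 15.1 CPM in KD6, 5.69, 5.49 and 6.19 CPM in KD4 and 6.81, 7.71 and 6.70 CPM in Scr (log2 fold change 1.24, standard error 0.154, FDR = 0.00257 for KD6 over KD4). KD4 was here below all Scr libraries by a small step that did not pass the test (log2 fold change -0.29, FDR = 0.597), and KD6 was above them by a larger one that did (0.95, FDR = 0.0166). On chromosome 6, the summed level of the 3 regions between 86083041 and 86096439 was 65.4, 51.9 and 50.04 CPM in KD6, 28.5, 24.3 and 34.5 CPM in KD4 and 22.8, 18.5 and 24.1 CPM in Scr. Every KD4 library was thus also above every Scr library in this sum, by less than KD6. These 3 regions had log2 fold changes of 0.91 to 0.97 between the lines, KD6 passed the test against Scr at all of them, and KD4 did at none.

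EV and OE did not lie at the level of KD4 and Scr at several of these loci. With all 15 libraries scaled together, EV had 44.5 to 69.0 CPM and OE 37.1 to 56.1 CPM at the chromosome 9 region, below every KD6 library. At the chromosome 16 region EV had 44.5 to 61.8 CPM and OE 38.6 to 47.5 CPM, and at the chromosome 2 region EV had 31.2 to 38.7 CPM and OE 28 to 31.9 CPM. At the chromosome 3 region EV had 7.72 to 12.6 CPM. At the last 3 regions the KD6 libraries overlapped the range of the other 12 libraries. KD6 was thus apart from KD4 and Scr there but not clear of the lines with other vectors. On chromosome 6, EV had 16.5 to 16.9 CPM and OE 10.8 to 16.9 CPM at chr6:86084886-86086284, below every KD6 library. KD6 overlapped the other 12 libraries at chr6:86083041-86083285 and chr6:86095468-86096439.

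At other loci KD4 was the line away from Scr. At chr14:75466689-75467077, the KD4 libraries had 3.97, 8.07 and 7.41 CPM, whereas KD6 had 19.4, 17.6 and 18.2 CPM and Scr had 13.2, 17.9 and 12.8 CPM. KD4 lay below every KD6 and Scr library and KD6 overlapped Scr, with a log2 fold change of 1.497 for KD6 over KD4 (standard error 0.211, FDR = 0.00497) and of -1.17 for KD4 over Scr (FDR = 0.0179). The neighbouring region, chr14:75467348-75467758, differed likewise between the lines by 1.34. EV and OE did not share the Scr level at this locus. With all 15 libraries scaled together, EV had 27.3 to 33.0 CPM and OE 24.9 to 30.0 CPM at the first region, above KD6 and Scr.

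The region chr5:93538685-93539345 was at 11.7, 13.6 and 14.9 CPM in KD4, 29.3, 27.7 and 28.4 CPM in KD6 and 26.2, 23.0 and 23.8 CPM in Scr. All KD4 libraries were below all of KD6 and Scr, and the KD6 libraries lay just above those of Scr. EV (21.7 to 28.5 CPM) and OE (25.8 to 27.2 CPM) lay near KD6 and Scr there. The log2 fold change was 1.08 between the lines (FDR = 0.00257), with -0.86 for KD4 against Scr (FDR = 0.0101) and 0.23 for KD6 (FDR = 0.927). At chr12:112872686-112872932 the KD4 level of 5.92, 7.74 and 4.50 CPM likewise lay below 14.7, 16.9 and 13.8 CPM in KD6 and 9.78, 13.1 and 12.7 CPM in Scr (log2 fold change 1.32, FDR = 0.00631).

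The loss in KD4 was shared by several regions side by side on chromosomes 6 and X. Between 143149253 and 143153832 on chromosome 6, 4 of 6 tested regions were called, and their summed level was 57.7, 68.7 and 73.9 CPM in KD4, 115.8, 120.2 and 124.0 CPM in KD6 and 116.4, 114.8 and 106.1 CPM in Scr. The 2 regions that were not called there had log2 fold changes of 0.79 and 0.82. On chromosome X, 3 regions between 108204005 and 108205879 summed to 23.1, 25.4 and 34.1 CPM in KD4, 58.0, 59.5 and 56.4 CPM in KD6 and 51.8, 54.4 and 46.7 CPM in Scr.

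In both stretches KD4 was below every KD6 and Scr library. Another 3 regions of chromosome X, between 67759264 and 67761334, summed to 41.5, 40.3 and 46.7 CPM in KD4 and 81.7, 85.7 and 72.6 CPM in KD6, against 77.8, 76.8 and 65.4 CPM in Scr. KD6 and Scr overlapped at that locus, and KD4 did not reach either.

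The group with the most members had KD4 and KD6 on opposite sides of Scr, or nearly so. It consisted of 6 regions between 86702715 and 86707141 on chromosome 11, all 6 of the regions tested in that stretch, with log2 fold changes of 0.98 to 1.08. Their summed level was 284.9, 326.8 and 373.8 CPM in KD6, 176.6, 141.2 and 165.4 CPM in KD4 and 229.2, 184.9 and 245.2 CPM in Scr.

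Summed over the group, every KD6 library was above and every KD4 library below the Scr libraries. Against Scr, neither line passed the test at any of the 6 regions: the log2 fold change of KD6 ranged from 0.52 to 0.71 and that of KD4 from -0.53 to -0.27. With all 15 libraries scaled together, KD6 was clear of the other 12 libraries at none of the 6 regions. KD4 was clear of the other 12 at those that start at 86702715, 86705505 and 86706412. At chr11:86705505-86706093 EV had 35.4 to 62.8 CPM and OE 33.4 to 41.0 CPM, so opposite sides holds for Scr as the reference. The nearest tested regions outside, 41816 bp to the left and 31162 bp to the right, had log2 fold changes of -0.10 and -0.11 between the lines.

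**Figure D2:**
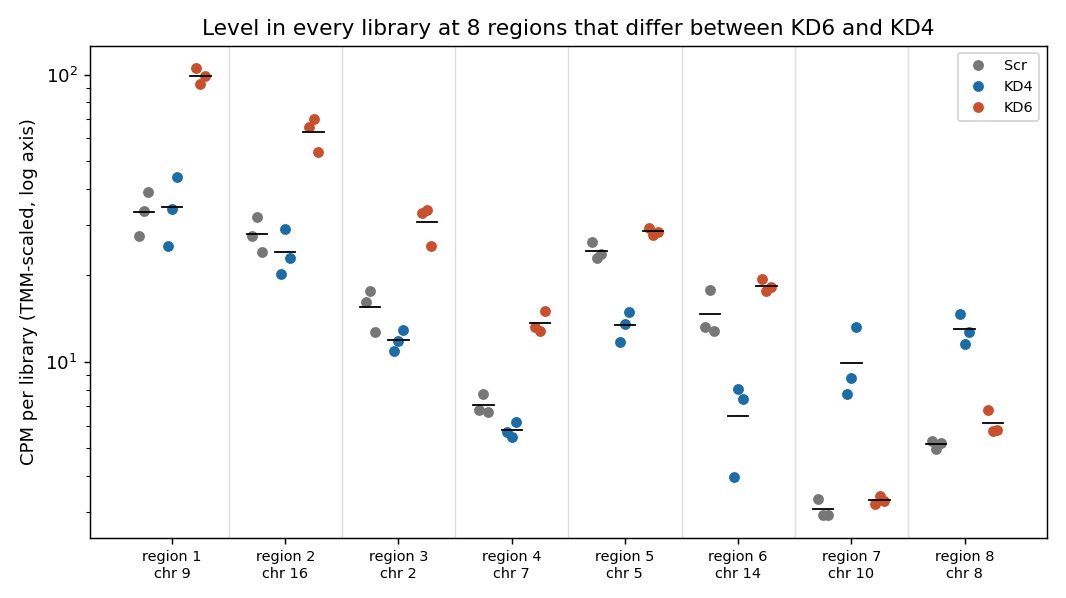
Level of every library (points, with the mean of each line as a bar) in CPM on a log axis at 8 regions, numbered from left to right as those that start at 7446962 on chromosome 9, 10099695 on chromosome 16, 76525763 on chromosome 2, 142065805 on chromosome 7, 93538685 on chromosome 5, 75466689 on chromosome 14, 62023186 on chromosome 10 and 36145152 on chromosome 8. KD6 stands above KD4 and Scr in the first 4, KD4 stands below KD6 and Scr in the next 2, and KD4 stands above KD6 and Scr in the last 2.

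Among the 32 regions lower in KD6, several were gained in KD4. At chr10:62023186-62023872 KD4 had 7.76, 8.77 and 13.3 CPM, KD6 had 3.21, 3.42 and 3.29 CPM and Scr had 3.34, 2.92 and 2.94 CPM. KD6 overlapped Scr, and all KD4 libraries were above both. The log2 fold change of KD6 over KD4 was -1.59 (standard error 0.208, FDR = 0.00350), and KD4 rose by 1.70 over Scr (FDR = 0.00171). At chr6:52192241-52192933 KD4 had 6.84, 7.13 and 9.42 CPM, KD6 had 4.21, 3.21 and 2.37 CPM and Scr had 4.35, 3.14 and 4.03 CPM. There the log2 fold change was -1.25 between the lines (FDR = 0.0231) and 1.02 for KD4 over Scr (FDR = 0.0438).

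A pair of regions on chromosome 8, between 36143931 and 36146533, followed the same pattern. Their summed level was 22.6, 17.9 and 20.9 CPM in KD4, 10.3, 8.81 and 8.64 CPM in KD6 and 7.82, 6.33 and 7.90 CPM in Scr. KD6 was also above all Scr libraries at this pair, by less, and that smaller step did not pass the test at either region (log2 fold changes of 0.53 and 0.24, FDR = 0.845 and 0.948). KD4 rose over Scr by 1.78 (FDR = 0.0024) and 1.32 (FDR = 0.00167) at the same regions. With all 15 libraries scaled together, EV had 2.41 to 3.09 CPM and OE 1.78 to 2.84 CPM at chr8:36145152-36146533, below the Scr level. KD4 was outside the range of the other 12 libraries at both regions.

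The loss was in KD6 at the regions on chromosome 7 between 115682622 and 115683772. They summed to 33.1, 29.7 and 26.2 CPM in KD6, 48.0, 53.7 and 61.9 CPM in KD4 and 46.6, 55.0 and 43.6 CPM in Scr. KD4 and Scr overlapped, and KD6 was below both. The first region of the pair passed the test for KD6 against Scr (log2 fold change -0.81, FDR = 0.0366), as did chr11:6546331-6546634 and chr1:132260426-132260796, with -1.05 (FDR = 0.038) and -0.94 (FDR = 0.0211). These 3 are all of the regions that passed that test downward among the 44289, a share of 0.00677%.

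The 4 regions between 28390241 and 28393735 on chromosome 17 had the largest differences of any group lower in KD6, with log2 fold changes of -1.59 to -1.24. Their summed level was 14.7, 16.1 and 14.5 CPM in KD6, 46.7, 43.0 and 26.6 CPM in KD4 and 29.8, 30.4 and 21.0 CPM in Scr. KD6 was below all KD4 and Scr libraries and varied little. KD4 varied more and its replicate 3 lay within the range of Scr, and none of the 4 regions passed the test for either line against Scr.

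The regions chr17:35603087-35603381 and chr15:97143080-97143518 had the lines on opposite sides of Scr. The first had 9.31, 8.86 and 8.80 CPM in KD6, 19.1, 18.7 and 17.3 CPM in KD4 and 14.3, 11 and 12.3 CPM in Scr (log2 fold change -1.03, FDR = 0.00497). The second had 3.36, 3.11 and 2.7 CPM in KD6, 6.84, 7.17 and 9.42 CPM in KD4 and 4.48, 5.21 and 6.48 CPM in Scr (log2 fold change -1.35, FDR = 0.00692). At both, the ranges of KD4, KD6 and Scr did not overlap. EV did not share the Scr level there: with all 15 libraries scaled together it lay at 8.04 to 9.14 CPM at the first region and 3.22 to 4.71 CPM at the second, where some KD6 libraries lay as well.

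Scr lay more often near the KD6 level than near the KD4 level, and how evenly it was divided depended on the scale. On the log2 scale, Scr was nearer to KD6 at 45 of the 67 higher regions and nearer to KD4 at 22. It was nearer to KD6 at 18 and to KD4 at 14 of the 32 lower regions. Over all regions tested it was nearer to KD6 at 24836 and to KD4 at 19453 on that scale. On means of CPM, Scr was nearer to KD6 at 43 and to KD4 at 24 of the higher regions, and at 24 and 8 of the lower ones. The lower regions were thus the more evenly divided set on the log2 scale and the less evenly divided one on CPM. The Scr mean lay between the means of the lines at 57 of the 67 and 26 of the 32 regions. Over all regions tested it did so at 12949 of 44289. Choosing regions for a wide gap between the lines favours this, so these counts are a description.

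By the ranges of the libraries, 32 of the 67 higher regions had every KD4 library below and no line-wide shift of KD6 out of the Scr range, and 14 had KD6 above with KD4 not out of the range. At 17 KD4 was below and KD6 above, so that the lines moved apart to both sides. Of the 32 lower regions, KD4 alone was above Scr at 10, KD6 alone below at 12 and both moved apart at 7. At 3 of the lower regions and 1 of the higher ones both lines were above Scr, at 1 of the higher ones both were below, and at 2 neither line was clear of Scr. Over all regions tested, KD4 lay above all Scr libraries at 8.92% and below at 7.28%, and KD6 at 5.97% and 4.55%. These shares are given as a description, since a region called between the lines must have at least 1 of them away from a level between them.

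The tests of each line against Scr share the Scr libraries, so their values stand side by side here. At the 67 higher regions the median log2 fold change against Scr was -0.62 in KD4 and 0.32 in KD6. At the 32 lower regions it was 0.56 in KD4 and -0.46 in KD6. KD4 passed the test against Scr at 26 of the 67 and 9 of the 32, and KD6 at 11 and 3. Over all regions tested, KD4 was called lower at 0.145% and higher at 0.431%, and KD6 was called higher at 0.142%. At 0 of the 99 regions did both lines pass, and at 30 and 20 neither did. About as many regions thus parted the lines without either being called against Scr as with it. Over all 44289 regions tested, both lines passed at 28 and neither at 43996. Choosing regions for a difference between the lines leaves little room for both to shift alike, so the 0 is a description.

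**Figure D3:**
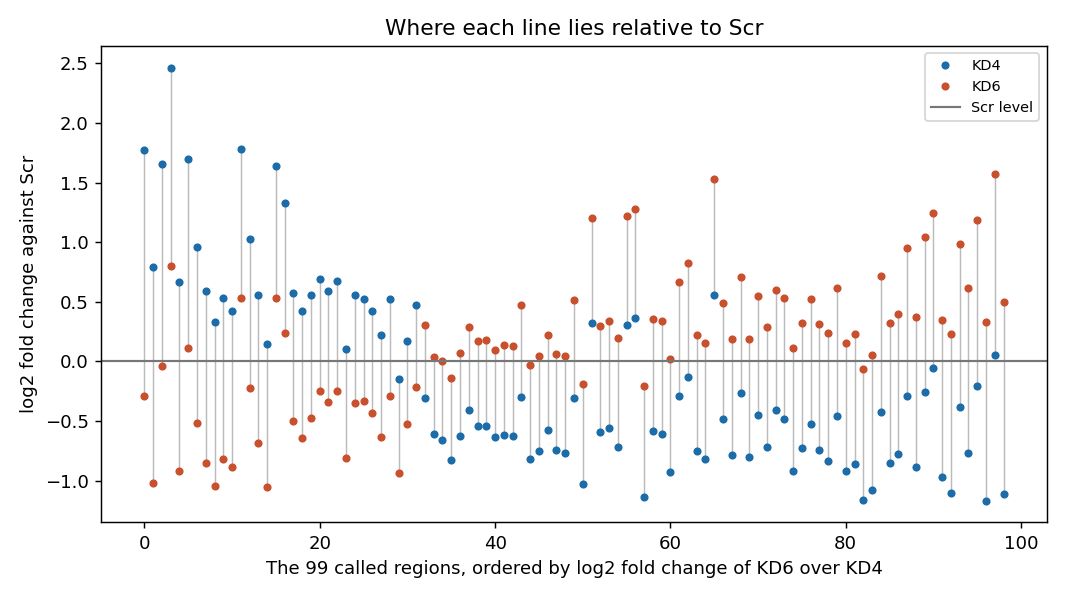
Log2 fold change of KD4 and of KD6 against Scr (y axis, points joined by a grey line) at the 99 called regions, ordered from the lowest to the highest log2 fold change of KD6 over KD4 (x axis), with the Scr level at 0. In the 67 regions to the right KD4 has a median of -0.62 and KD6 of 0.32, and in the 32 regions to the left KD4 has a median of 0.56 and KD6 of -0.46.

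EV and OE, lines of the same parental cells with other vectors, widen the reference. With all 15 libraries scaled together, the KD4 libraries lay outside the range of the other 12 at 66 of the 99 regions (49 of the higher and 17 of the lower), and the KD6 libraries did so at 20 (8 and 12). Over all regions tested this was so for KD4 at 2.14% and for KD6 at 0.456%. KD4 was thus the line apart from all others at most of the 99 regions, and it was also the more frequent one over all regions tested. Choosing regions for a gap between the lines favours such positions, so these counts are a description. The difference between the 2 counts was not tested.

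Part of the called regions lay in clusters. Joined wherever neighbours of the same direction were at most 50 kb apart, the 99 regions formed 67 loci, of which 18 were groups of 2 to 6 regions. These groups held 50 of the 99 regions (50.5%), with 36 higher regions in 12 groups and 14 lower regions in 6. With a largest gap of 10 kb there were 17 groups with 47 regions, and with 200 kb 18 groups with 51. Neighbouring regions are parts of the same locus in the same cells, so the 99 regions are not 99 separate events.

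Beside the groups described, the higher ones were on chromosome 2 between 75469482 and 75507147 (4 of 10 regions tested there, log2 fold changes of 0.65 to 1.14) and between 119433590 and 119437321 (3 of 5, 0.95 to 0.97), on chromosome 11 between 31820940 and 31823265 (2, 1.05 to 1.26), on chromosome 14 between 70541226 and 70542367 (2, 0.61 to 0.70) and on chromosome 6 between 129004396 and 129005849 (2, 0.66 to 0.72). The lower ones were on chromosome 1 between 51328344 and 51341197 (2 of 3, -0.86 in each), on chromosome 2 between 19663602 and 19664801 (2, -0.93 to -0.91) and on chromosome 17 between 35598923 and 35603381 (2 of 3, -1.03 to -0.82). The regions within the span of a group that were not called had the same sign as the group in every case. In the chromosome 2 group that starts at 75469482 their log2 fold changes were only 0.064 to 0.48. Its called regions were also unlike. At the first 3, KD6 over Scr was 0.47 to 0.72 and KD4 -0.42 to -0.29, with no test passed. At chr2:75506569-75507147 KD4 over Scr was -0.61 (FDR = 0.019) and KD6 0.034 (FDR = 0.995).

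The reach of a difference was a few kilobases. The 40 uncalled regions within 1 kb of a called region had a median log2 fold change of 0.72 in that region's direction, and 40 of them had its sign. Between 1 and 5 kb the median was 0.65, with 27 of 32 of the same sign, and between 5 and 20 kb it was 0.16, with 75 of 107. Between 20 and 50 kb it was -0.0033, with 59 of 120 of the same sign, and between 50 and 200 kb it was 0.0090, with 340 of 649. These regions come from the same libraries as the called ones, so the values are a description.

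**Figure D4:**
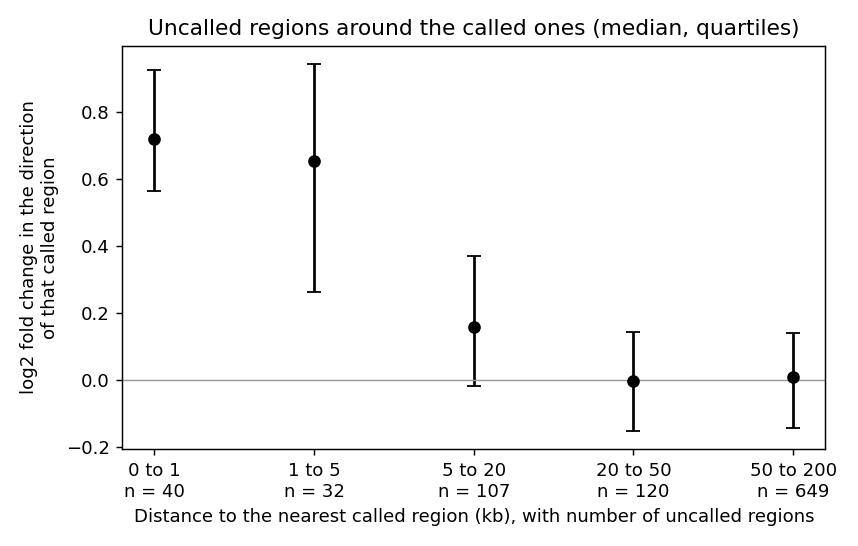
Log2 fold change of uncalled regions, signed by the direction of the nearest called region (y axis, median with quartiles), by their distance from it in kb (x axis, with the number of regions). The median falls from 0.72 within 1 kb to -0.0033 at 20 to 50 kb.

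Chromosomes 2 and 11 held 16 called regions each and chromosome 6 held 12, while chromosome 13, chromosome Y and the mitochondrial genome held 0. As a share of the regions tested there, this came to 0.441% on chromosome 2, 0.51% on chromosome 11 and 0.469% on chromosome 6. All 6 calls of chromosome X and all 5 of chromosome 14 were higher in KD6, and all 6 of chromosome 17 were lower. On chromosomes X and 17 these were 2 loci each.

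Whole chromosomes differed little between the lines, with chromosome 15 as the exception. The median over its 1819 tested regions, as the log2 deviation from the mean of the 9 libraries, was 0.0999, 0.0358 and 0.0637 in KD4, -0.0645, -0.0209 and -0.0305 in KD6 and -0.0109, -0.0210 and 0.0464 in Scr. All KD4 libraries were above all KD6 libraries, and Scr overlapped both. The difference of KD6 minus KD4 was -0.11, with p = 0.1 by a two-sided exact permutation test, the smallest that 3 against 3 libraries can give, and 0.55 after Benjamini-Hochberg adjustment over 22 chromosomes. On the other 19 chromosomes the difference lay between -0.019 and 0.018, with the mitochondrial genome and chromosome Y left out for their 12 and 29 regions. Libraries of the lines did not overlap on 3 of those 19 either (chromosomes 2, 4 and 19).

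The difference on chromosome 15 lay in its distal part, with boundaries chosen after the values were seen, so that it is given with no test. Over the 863 regions from 80 Mb onward the median deviation was 0.152, 0.0704 and 0.125 in KD4, -0.111, -0.0452 and -0.0501 in KD6 and -0.0344, -0.0487 and 0.0591 in Scr. KD4 was above every KD6 and Scr library there, and KD6 overlapped the lower end of Scr. The difference of -0.18 on the log2 scale is a level 13.6% higher in KD4. It was spread over the regions rather than held by a few, since 715 of the 863 (82.9%) were lower in KD6, against 49.8% of all regions tested. Over the 956 regions from 0 to 80 Mb the difference was -0.032 and 53.5% were lower in KD6. Why the segment differed was not tested.

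**Figure D5:**
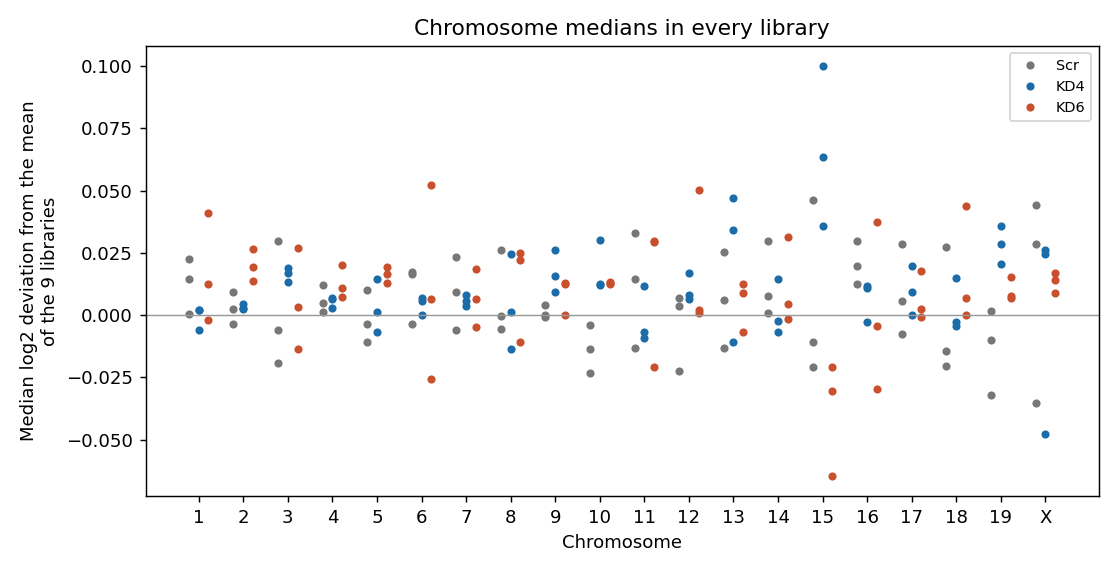
Median log2 deviation of each library from the mean of the 9 libraries, over the tested regions of each chromosome (x axis), with 1 point a library and a colour for each line. On chromosome 15 the KD4 libraries lie at 0.0358 to 0.0999 and the KD6 libraries at -0.0645 to -0.0209, whereas the lines differ by at most 0.019 on the other 19 chromosomes other than Y.

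At 7 regions a large difference between the lines was not called and rested mainly on 1 library. They are the regions with a mean of at least 5 CPM, a log2 fold change of more than 1.5 in size and an FDR over the threshold, a selection made after their values were seen. At all 7, KD4 replicate 2 was the highest of the 9 libraries, at 3.48 to 4.62 times the next one. Of these, 5 lie on chromosome 9 between 3000337 and 3024601. At chr9:3024381-3024601 KD4 had 11, 104.6 and 25.5 CPM and KD6 had 6.24, 9.17 and 16.2 CPM (FDR = 0.152). At chr2:98496895-98497670 KD4 had 22.5, 262.5 and 56.8 CPM and KD6 had 12.9, 18.0 and 41.7 CPM (log2 fold change -2.24, FDR = 0.245), and the lines overlapped at both regions.

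At the threshold, the last region called was chr1:60516778-60517414, with an FDR of 0.0497 and a log2 fold change of 0.80, and the first not called was chr16:38588542-38589018, with an FDR of 0.0511 and a log2 fold change of -1.37 at a mean of only 2.81 CPM. The KD4 and KD6 libraries did not overlap at either. The count of regions depended on single libraries. It fell to 16 higher and 1 lower without KD6 replicate 2 and to 17 and 7 without KD4 replicate 2, and all of these were among the 67 and 32. The same libraries counted over the other set of regions that the authors deposited, made for OE and EV, gave 63 higher and 9 lower of 37868 tested. Of the 99 regions 54 had a counterpart there with at least 50% reciprocal overlap, and 35 of these were called there too. All 54 had the same direction, which the shared libraries and bases all but fix.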

How the data were processed

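ATAC-seq counts of mouse 6DT1 lines were analysed. Expected counts for each region of open chromatin (mm39), without normalization, are what the authors deposited. Of the values for the knockdown lines 95.1% were whole numbers. Whole-number counts had been assumed in planning, so the values were rounded before testing. The methods name Bowtie2, MACS and Partek Flow, but STAR 2.7.8a appears in the submitters' processing notes and RNA extraction in the labels. Which aligner made the counts is therefore uncertain. The sources used here do not give how peaks were merged or reads assigned. Each table has 15 other columns that match no sample, and these were not used.

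Groups came from the sample titles. Scr, KD4 and KD6 were fitted together with 1 mean per line in edgeR 4.0.16 (R 4.3.3), by TMM scaling, the tool's filter on low counts (309 of 44598 regions removed), the quasi-likelihood test and Benjamini-Hochberg adjustment over all tested regions. Every FDR is from this fit, two-sided, and CPM values are scaled by TMM. Each standard error is the size of the log2 fold change divided by the square root of the test's F statistic, so it is implied by the test. Log2 values per library used a prior count of 2. Chromosome medians were compared by exact permutation in scipy 1.17.1. The tests were checked on simulated data. Intervals on single counts are not given, and the depth limits calls at low levels.

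The comparison, the lists and the tests were chosen with earlier results of these data known. Regions named were, per direction, the 10 largest changes and the 5 smallest p-values, with a mean of at least 5 CPM and no overlap between the lines, all groups within 50 kb, and the regions next to the threshold. Those chosen otherwise are marked. With no mm39 annotation, the gene lists, marker lists and promoter counts that had been planned could not be applied, and the reference tables of other builds were not combined with the positions.

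Alternatives were scaling by RLE, by the upper quartile or without TMM, DESeq2 1.42.0, KD4 and KD6 alone, no filter or at least 50 counts in 3 libraries, other thresholds, the replicate number as a block, other gaps, the regions of the other table and each library left out. Leaving out Scr libraries, windows of 5 Mb and the joint scaling of 15 libraries were added after seeing the data.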

Additional observations from a re-analysis of the deposited data

Results flagged for a closer look

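At 24 of the 99 regions the KD4 libraries and the KD6 libraries all lay on opposite sides of all 3 Scr libraries. This set them apart for a closer look, and the difference between the effects of the lines against Scr is the same quantity as KD6 over KD4, which chose them. The pattern was present at 107 of the 44289 regions tested (0.242%). At 17 regions KD6 was above and KD4 below Scr, with log2 fold changes of KD6 over KD4 at chr1:60516778-60517414 (0.80), chr1:79772140-79772685 (1.17), chr11:31820940-31821704 (1.05), chr11:86702715-86703218 (1.01), chr11:86705505-86706093 (1.05), chr11:86706412-86707141 (1.02), chr11:103874846-103875657 (0.90), chr12:112872686-112872932 (1.32), chr14:70541226-70541716 (0.61), chr14:70541924-70542367 (0.70), chr14:105437598-105437800 (1.38), chr2:119433590-119434072 (0.97), chr2:119436958-119437321 (0.95), chr5:93538685-93539345 (1.08), chr7:142065805-142066103 (1.24), chrX:108204764-108205317 (1.06) and chrX:108205663-108205879 (0.98). At 7 regions KD6 was below and KD4 above Scr, at chr10:80767419-80767913 (-1.07), chr15:97143080-97143518 (-1.35), chr17:35603087-35603381 (-1.03), chr2:19663602-19664150 (-0.93), chr2:19664613-19664801 (-0.91), chr3:145597303-145597895 (-1.06) and chr7:19340608-19340820 (-1.81).

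At these regions the test against Scr was passed by KD6 at chr7:142065805-142066103 alone of the 24, and by KD4 at chr1:79772140-79772685, chr11:31820940-31821704, chr12:112872686-112872932, chr5:93538685-93539345, chrX:108204764-108205317 and chrX:108205663-108205879. These 24 regions include 3 of the 6 regions of the chromosome 11 group that starts at 86702715 and 4 pairs of near neighbours. Groups of 3 libraries are too small for a check on outlying libraries, and none was made.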

How the results depend on the processing

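At an FDR of 0.01 there were 28 higher and 5 lower regions, and at 0.1 there were 120 and 61. DESeq2 called 158 higher and 89 lower regions, among them all 99. Over the regions made for OE and EV, 9 were lower in KD6, of fewer regions tested. Without 1 library of KD4 or KD6 there were 16 to 47 higher and 1 to 27 lower regions, and without 1 of Scr 46 to 66 and 22 to 35. Beside the KD4 and KD6 replicates 2 given above, the count moved by over 1.5 times without KD4 replicate 3 (40 and 20), KD6 replicate 1 (39 and 17) and KD6 replicate 3 (9 lower). These fits have fewer libraries; the part of each library's own values was not tested. On means of CPM instead of log2 CPM, Scr was nearer to KD4 at 8 rather than 14 of the lower regions and at 24 rather than 22 of the higher ones. Same-numbered KD4 and KD6 libraries had correlations of deviations of -0.20, 0.061 and -0.094, and differently numbered ones -0.11 to 0.19. The replicate numbers thus gave no sign of pairing. Deviations from the mean of 3 libraries must balance, so these values cannot decide whether libraries were paired. With the replicate block there were 53 higher and 33 lower regions, 51 and 21 of them among the 67 and 32. The median of chromosome 15 differed by -0.12 to -0.088 without 1 library and -0.11 without TMM. Of 1037 refitted values of 61 named regions, 0 changed direction, which the shared libraries all but fix, and 228 did not pass the threshold. In all 17 settings 13 regions passed it, while chr6:86083041-86083285 passed in only 5. At 3 against 3 libraries and these depths, small differences at weak regions cannot be seen.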

Other observations

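Along the genome, 485 windows of 5 Mb held at least 20 tested regions. The 5 distal windows of chromosome 15 all had a median of KD6 minus KD4 under -0.1 with no overlap between the lines, whereas 11 of the 468 windows of other chromosomes were under -0.1 and 13 were over 0.1. The chromosome 15 windows ranged from -0.21 to 0.067, and no cause was tested. The window with the largest difference in size was the first of chromosome 4, from 0 to 5 Mb (0.23 over 29 regions), and the first of chromosome 6 (-0.17 over 25 regions) was as large as those of distal chromosome 15. The lines did not overlap in either.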
